A study of Mus musculus with 24 samples.

Results

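Lipid droplets are the stores in which a cell keeps triglyceride, and 10 genes of droplet proteins and of lipid uptake were followed here in mouse liver. The genes were chosen by name, as Plin2, Plin4, Plin5, Cidec, G0s2 and Hsd17b13 for the droplet and Cd36, Lpl, Vldlr and Angptl4 for uptake. They, and the lists of other genes below, were chosen with earlier results of these data known. Shares over all genes are therefore given beside them for scale and not as a test. The 10 genes are among the 15161 in the deposited count table, and all 10 passed the filter on low counts. RNA was sequenced from liver of male C57BL6/J mice, an inbred strain, aged 4 months. The study set diets restricted in methionine (methionine restriction, MR) against control diets, with protein given as elemental amino acids or as casein, the main milk protein. The elemental control and casein control groups received 0.86% methionine, and the elemental MR and casein MR groups 0.17%. Each of the 4 groups held 6 libraries. Oxidized casein was the protein of the casein MR diet, and the labels do not call the casein of its control oxidized. Restriction and oxidation thus cannot be told apart in the casein groups. Nor can protein source and oxidation where casein MR is compared with elemental MR, or where the MR effects are compared. Every mouse was described as male and of one strain and age, and no other treatment was named. The libraries were not stated to be separate mice, and what the p-values test is then the scatter among these samples, which may be technical.

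A droplet is a core of triglyceride and cholesterol esters in a single layer of phospholipid, and the proteins on that layer set how fast the core is filled and emptied. Perilipins shield the core from lipases, CIDE proteins move lipid between touching droplets, and G0s2 inhibits the main triglyceride lipase. The fatty acids that fill the core are made in the hepatocyte or taken up. Uptake uses Cd36, which carries free fatty acids, lipoprotein lipase (Lpl), which frees them from circulating lipoproteins, and receptors such as Vldlr, which bind the lipoproteins. Adult liver normally holds little Lpl and Vldlr, which are better known from heart, muscle and fat.

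Each library held between 13.5 and 20.8 M counted reads, with means (± SD, n = 6) of 17.2 ± 2.36 M in the elemental control group and 16.5 ± 1.17 M in its MR group, and of 16.0 ± 1.68 M and 17.4 ± 1.85 M in the casein groups. Levels are given as CPM, the counts of a gene scaled to a common library size, and a gene is called changed at an adjusted p under 0.05 in edgeR's quasi-likelihood test, with Benjamini-Hochberg adjustment over the 13441 genes tested. Values after ± beside a log2 fold change are standard errors. The 6 hepatocyte markers, albumin among them, were abundant in every library, at a summed level of 57812 to 110290 CPM. Their summed level was 100248 to 110290 CPM in elemental control, 78905 to 86465 in elemental MR, 89214 to 107082 in casein control and 57812 to 65580 in casein MR. Library E_MR_3423 held the highest summed level of adipocyte markers, 135 CPM against 25.6 to 49.6 in the other 23 libraries. Fabp4 gave 85.6 CPM of that sum and Lipe 22.5. Not every adipocyte marker was highest there, as Cfd was highest in C_C_3407 (6.90 CPM) and Lipe in E_C_3430 (24.2 CPM). Library C_MR_3438 held skeletal muscle markers at 2307 CPM in sum, against 7.92 to 80.9 in the other 23. Of the 6 hepatocyte markers, 2 were called lower on elemental MR and 5 on casein MR, against 6.64% and 12.7% of all genes. The sum of these markers is mostly albumin. Hnf4a, the hepatocyte transcription factor, was not called on either (0.24 ± 0.10 and 0.04 ± 0.10, adjusted p = 0.12 and 0.846). The part of these marker levels in the results was not tested.

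On both MR diets 4 of the 10 genes were higher than on the matching control diet and 0 were lower. Vldlr and Cd36 rose on both. Hsd17b13 and Plin4 were called on elemental MR, and Lpl and Plin5 on casein MR. Over all genes tested, 6.78% were called higher and 6.64% lower on elemental MR, and 10.6% were called higher and 12.7% lower on casein MR. The count of 0 lower was also 0 at an unadjusted p under 0.05, with edgeR, the DESeq2 Wald test and limma-voom alike, on both diets. The median log2 fold change of the 10 genes was 0.37 on each MR diet, and the median over all genes was within 0.02 of 0. The interaction test asks whether the MR effect differed between the elemental and casein diets, of which only casein MR was labelled oxidized. It called Lpl and Vldlr, both with the larger effect on casein. Among all genes, 0.781% were called for a higher and 1.56% for a lower log2 difference, casein minus elemental. A lower difference can be a smaller rise or a larger fall on casein.

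**Figure D1:**
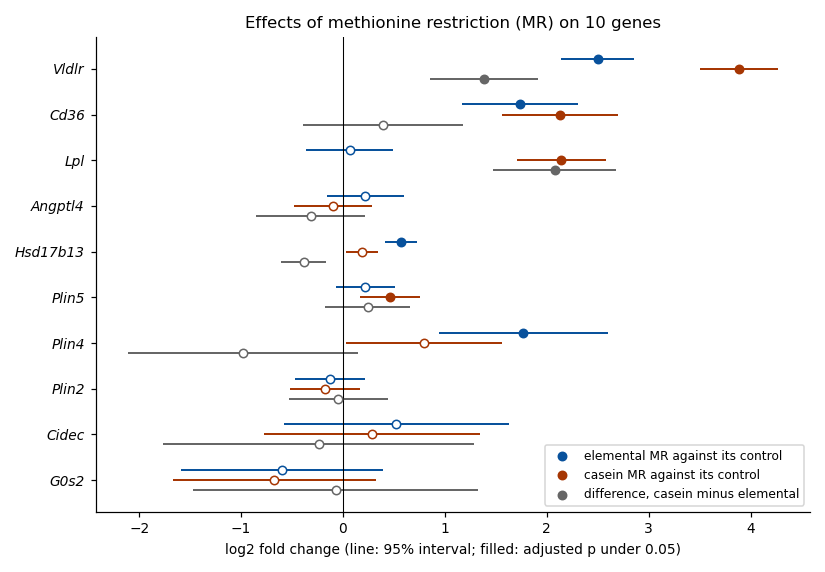
Log2 fold changes (horizontal axis) of the 10 genes, with elemental MR against its control in blue, casein MR against its control in brown, and the difference of these effects in grey. Points are estimates from 24 libraries, lines are 95% intervals and filled points have an adjusted p under 0.05. Vldlr lies farthest from 0 on both diets, at 2.50 and 3.88, and Lpl is near 0 on elemental MR only.

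Start sites were looked up for the genes the comparisons turn on, because members that rise together invite a look at their promoters. RefSeq (GRCm38.p6) gave 11 windows, from 250 bases before to 50 after a start, for 8 of the 10 genes, and the windows of Lpl and Angptl4 were not analysed here. The 250 bases before the start are shown for Vldlr and Cd36, which rose on both MR diets, and for Hsd17b13, called on elemental MR. The ATF4 element TGATGNAA (searched on both strands) is in capitals where it occurs. Windows of Plin4 and Plin5, each also called on a single MR diet, held no match and are not shown. The Vldlr window is the second of a pair and lies at chr19:27216770-27217019 on the plus strand. Those of Hsd17b13, chr5:103977389-103977638, and Cd36, chr5:17835897-17836146, lie on the minus strand.
Vldlr: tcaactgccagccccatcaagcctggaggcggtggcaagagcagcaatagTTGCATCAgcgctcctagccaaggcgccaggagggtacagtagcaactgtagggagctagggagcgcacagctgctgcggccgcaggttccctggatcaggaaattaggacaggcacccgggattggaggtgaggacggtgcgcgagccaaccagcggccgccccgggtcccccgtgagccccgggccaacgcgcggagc
Hsd17b13: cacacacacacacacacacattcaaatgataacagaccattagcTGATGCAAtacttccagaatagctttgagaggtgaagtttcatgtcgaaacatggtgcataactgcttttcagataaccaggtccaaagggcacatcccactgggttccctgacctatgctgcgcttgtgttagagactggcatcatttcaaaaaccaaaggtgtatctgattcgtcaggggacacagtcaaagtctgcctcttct
Cd36: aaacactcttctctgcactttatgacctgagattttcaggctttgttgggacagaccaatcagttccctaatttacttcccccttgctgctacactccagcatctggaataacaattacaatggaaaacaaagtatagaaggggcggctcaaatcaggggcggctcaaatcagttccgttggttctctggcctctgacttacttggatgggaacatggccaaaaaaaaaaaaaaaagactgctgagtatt

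In Hsd17b13 the match TGATGCAA spanned bases -206 to -199 before the start. In Vldlr the match read TTGCATCA, the reverse strand of the element, at bases -200 to -193. The other 9 windows held no such letters. Over all 32851 RefSeq promoter windows of the same length, 1304 (3.97%) held the element. The DR1 element, a direct repeat of AGGNCA with 1 base of any kind between, which PPAR receptors bind with RXR, was searched on both strands and was in 0 of the 11 windows and in 125 (0.381%) of all. A match describes letters in the window and was not tested as a binding site.

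Vldlr, the very low density lipoprotein receptor, showed the largest log2 fold change of the 10 genes on both MR diets. Its level ran from 1.73 to 4.11 CPM (median 2.67) in the elemental control libraries and from 11.1 to 17.9 CPM (median 16.3) in elemental MR. On casein control it ran from 0.873 to 2.10 CPM (median 1.97) and on casein MR from 20.7 to 30.2 CPM (median 24.9). Every MR library lay above every control library, and every casein MR library above every elemental MR library. The rise was 5.65-fold on elemental MR (log2 2.50 ± 0.17, adjusted p = 1.48e-10) and 14.8-fold on casein MR (3.88 ± 0.19, adjusted p = 6.81e-14). The effects differed by 1.39 ± 0.26 on the log2 scale (95% interval 0.86 to 1.91, adjusted p = 0.00238). Part of that difference lay in the controls, where the casein value was lower by a log2 fold change of -0.71 ± 0.21, which was not called by edgeR (adjusted p = 0.172) and was by the DESeq2 Wald test (adjusted p = 0.0496). Between the MR diets Vldlr was 1.60-fold higher on casein (0.67 ± 0.15, adjusted p = 0.00414).

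Cd36, the fatty acid translocase of the plasma membrane, rose on both MR diets. Elemental control libraries held 13.7 to 28.5 CPM (median 23.1) and elemental MR libraries 61.9 to 95.1 CPM (median 69.4). In casein control the range was 14.4 to 72.9 CPM (median 21.6), and in casein MR 119 to 151 CPM (median 130). The groups compared did not overlap on either protein source, although a single casein control library, C_C_3407, stood at 72.9 CPM while the other 5 held at most 36.1. The rise was 3.33-fold on elemental MR (log2 1.74 ± 0.28, adjusted p = 8.28e-05) and 4.38-fold on casein MR (2.13 ± 0.28, adjusted p = 1.36e-06). Without E_MR_3423 the elemental value was 1.65 (adjusted p = 3.24e-04), and without C_C_3407 the casein value was 2.62 (adjusted p = 4.28e-10). The difference between the effects, 0.39 ± 0.38 (95% interval -0.39 to 1.18), was not called (adjusted p = 0.769). All 6 casein MR libraries lay above all 6 elemental MR libraries, at 1.80-fold, yet this comparison just missed the threshold (0.85 ± 0.26, adjusted p = 0.0518). It passed in 4 of the alternative fits, with adjusted p from 6.59e-05 to 0.0485, and 6 of the 24 fits with a single library removed also called it.

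Lpl, lipoprotein lipase, rose on casein MR. In elemental control it ran from 34.7 to 52.9 CPM (median 35.4), in elemental MR from 26.6 to 68.6 (median 38.4) and in casein control from 29.2 to 40.2 (median 38.4). In casein MR it ran from 95.8 to 264 CPM (median 153), so that all 6 libraries lay above the other 18. The rise on casein MR was 4.41-fold (log2 2.14 ± 0.21, adjusted p = 1.97e-08). On elemental MR the log2 fold change was 0.06 ± 0.21 (95% interval -0.36 to 0.49, adjusted p = 0.893). The effects differed by 2.08 ± 0.29 (95% interval 1.47 to 2.68, adjusted p = 1.51e-04), and between the MR diets Lpl was 3.82-fold higher on casein (1.93 ± 0.21, adjusted p = 7.23e-07).

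Lpl is also made by muscle, fat and macrophages, and the highest library of each MR group was one with markers of such tissue. The highest on casein MR, at 264 CPM, was C_MR_3438, the library with muscle markers, and without it the casein MR value was 1.94 (adjusted p = 2.48e-08) and the difference between the effects 1.88 (adjusted p = 1.79e-04). The highest elemental MR library, at 68.6 CPM, was E_MR_3423, and without it the elemental value was -0.13 (adjusted p = 0.749). The 12 Kupffer cell and macrophage markers summed to 509 to 763 CPM in elemental control, 449 to 698 in elemental MR, 455 to 769 in casein control and 595 to 994 in casein MR. The value of 994 was that of C_MR_3431, and the other casein MR libraries held at most 684 CPM. With edgeR, DESeq2 and limma-voom 0 of the 12 were called on casein MR, and 2 were higher at an unadjusted p under 0.05 with each tool. In bulk liver RNA, more cells of a type and more RNA per cell cannot be told apart, and which cells held the Lpl RNA was not tested.

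Angptl4, a secreted inhibitor of Lpl and a known PPAR target, was not called in any of the 5 comparisons. It ran from 52.2 to 101 CPM (median 78.5) in elemental control, 62.9 to 111 (median 96.1) in elemental MR, 47.5 to 127 (median 85.4) in casein control and 64.7 to 104 (median 79.5) in casein MR. All 4 groups overlapped. The log2 fold change was 0.22 ± 0.18 on elemental MR (95% interval -0.16 to 0.60, adjusted p = 0.5) and -0.10 ± 0.18 on casein MR (95% interval -0.48 to 0.28, adjusted p = 0.766).

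**Figure D2:**
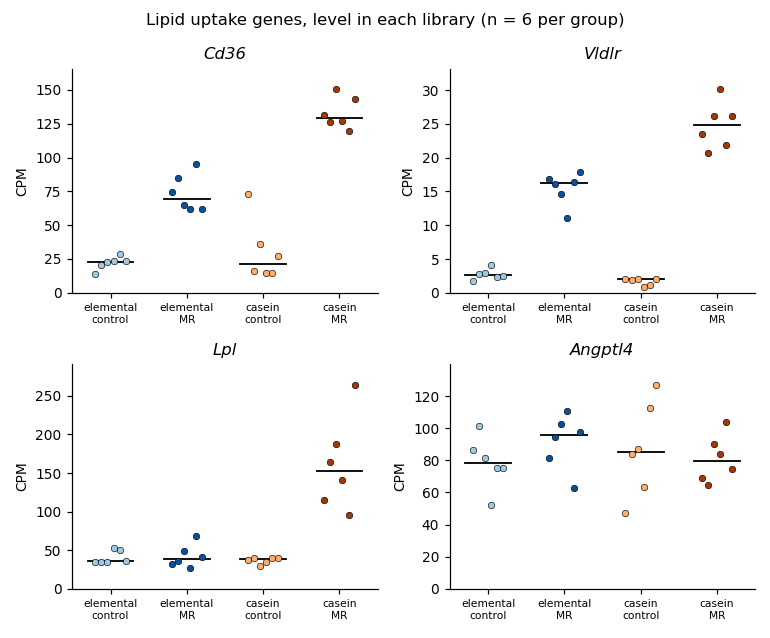
Level in CPM (vertical axes, linear and from 0) of the lipid uptake genes in each of the 24 libraries, by diet group, with the group median as a bar. Cd36 and Vldlr are higher in both MR groups, Lpl in all 6 casein MR libraries, and Angptl4 overlaps among all groups.

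Among the droplet proteins, Hsd17b13, a liver enzyme that sits on the droplet surface, rose on elemental MR. It ran from 402 to 479 CPM (median 416) in elemental control and from 608 to 670 CPM (median 629) in elemental MR, with no overlap. Casein control held 395 to 567 CPM (median 455) and casein MR 464 to 597 CPM (median 507), ranges that overlapped. The rise was 1.48-fold on elemental MR (log2 0.57 ± 0.08, adjusted p = 7.49e-06) and the casein value, 0.18 ± 0.08, was not called (adjusted p = 0.0808). Without C_C_3407, the highest casein control library for this gene, the casein value passed at 0.26 (adjusted p = 0.00619), and so it did without C_MR_3412 (0.22, adjusted p = 0.0452). It also passed under limma-voom (0.22, adjusted p = 0.0266) and with 1 surrogate variable (0.22, adjusted p = 0.0324). The effects, casein minus elemental, differed by -0.38 ± 0.11 (95% interval -0.60 to -0.16), which edgeR did not call (adjusted p = 0.0546), while the DESeq2 Wald test (adjusted p = 0.0213) and limma-voom (adjusted p = 0.0419) did. On the MR diets Hsd17b13 was lower on casein than on elemental amino acids (-0.28 ± 0.08, adjusted p = 0.0245), again with no overlap. That call was lost when any of 5 libraries, E_MR_3403, E_MR_3424, C_MR_3412, C_MR_3425 or C_MR_3438, was left out (adjusted p = 0.0517 to 0.0682).

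Hsd17b11, a related droplet dehydrogenase and the nearest protein-coding neighbour of Hsd17b13 in RefSeq (GRCm38.p6), followed another order. It ran from 219 to 285 CPM (median 256) in elemental control, 283 to 312 (median 304) in elemental MR, 253 to 344 (median 263) in casein control and 603 to 911 (median 699) in casein MR. All casein MR libraries lay above all others. Its log2 fold change was 1.38 ± 0.09 on casein MR (adjusted p = 6.36e-12) and 0.22 ± 0.09 on elemental MR (adjusted p = 0.0915). The elemental value passed with the elemental groups alone (adjusted p = 0.0211) and without C_MR_3425 (adjusted p = 0.049). The effects differed by 1.16 ± 0.12 (adjusted p = 3.43e-06). The neighbours thus differed in which MR diet gave the higher level, Hsd17b13 being higher on elemental MR and Hsd17b11 on casein MR (1.26 ± 0.09, adjusted p = 7.48e-10).

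Plin5, the perilipin that ties droplets to mitochondria in tissues that burn fat, was called on casein MR. Its range was 44.0 to 69.1 CPM (median 54.0) in elemental control, 51.7 to 74.4 (median 64.8) in elemental MR, 24.3 to 55.1 (median 39.4) in casein control and 43.3 to 68.5 (median 54.3) in casein MR. The casein groups overlapped, and casein control held the lowest values of all. The rise was 1.38-fold on casein MR (log2 0.46 ± 0.14, adjusted p = 0.0197), and the elemental value was 0.22 ± 0.14 (adjusted p = 0.356). Without C_MR_3433, the highest casein MR library, the casein value was 0.39 and no longer called (adjusted p = 0.0612). The difference between the effects was 0.24 ± 0.20 (95% interval -0.18 to 0.66, adjusted p = 0.713).

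Plin4, a perilipin of nascent droplets that is abundant in adipocytes, was called on elemental MR at a low level. Elemental control libraries held 0.431 to 2.44 CPM (median 1.52) and elemental MR libraries 2.24 to 8.22 CPM (median 4.65), and 1 MR library lay within the control range. Casein control held 1.5 to 4.95 CPM (median 2.62) and casein MR 1.71 to 7.84 CPM (median 5.84), which overlapped. The rise was 3.41-fold on elemental MR (log2 1.77 ± 0.40, adjusted p = 0.00351), and the casein value of 0.79 ± 0.37 was not called (adjusted p = 0.135). It was called without C_MR_3412, the lowest casein MR library (0.98, adjusted p = 0.0474). The effects differed by -0.98 ± 0.55 (95% interval -2.11 to 0.15, adjusted p = 0.499).

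The highest Plin4 value, 8.22 CPM, was in E_MR_3423, the library with the highest summed adipocyte markers. Adipoq was at 4.6 CPM there, Plin1 at 4.14 and Fabp4 at 85.6. Without that library the elemental value was 1.55 (adjusted p = 0.0134). In E_MR_3403 Plin4 stood at 6.00 CPM, with Plin1, the adipocyte perilipin, at 0, Cfd at 1.21 and the summed adipocyte markers at 26.8. In E_MR_3424 Plin1 was at 1.98 CPM and the summed adipocyte markers at 47.3. The part of fat tissue in the Plin4 values was not tested. Summed adipocyte markers ran from 31.5 to 46.4 CPM in elemental control, 26.7 to 135 in elemental MR, 33.3 to 49.5 in casein control and 25.6 to 49.6 in casein MR. Of the 4 markers tested, edgeR called Cidea higher on elemental MR, at 3.33 ± 1.1 (adjusted p = 0.0441), while the DESeq2 Wald test (adjusted p = 0.0717) and limma-voom (0.98, adjusted p = 0.683) did not. Cidea stood at 10.2 CPM in E_MR_3423 and 3.36 in E_MR_3424, and without E_MR_3423 its value was 1.60 (adjusted p = 0.382).

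Plin2, the main perilipin of hepatocyte droplets and one whose protein is held stable by droplet lipid, was not called in any of the 5 comparisons. It ran from 506 to 989 CPM (median 752) in elemental control, 459 to 928 (median 676) in elemental MR, 543 to 839 (median 645) in casein control and 484 to 774 (median 563) in casein MR. All ranges overlapped widely. The log2 fold change was -0.13 ± 0.17 on elemental MR (95% interval -0.47 to 0.22, adjusted p = 0.695) and -0.17 ± 0.17 on casein MR (95% interval -0.52 to 0.17, adjusted p = 0.519). The intervals thus held no rise above 0.22 on either diet.

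Cidec, the CIDE protein that enlarges droplets, was near the limit of what these libraries measure, with 1 to 71 reads per library. It ran from 0.18 to 2.09 CPM (median 1.04) in elemental control, 0.546 to 3.67 (median 1.07) in elemental MR, 0.0691 to 3.73 (median 1.21) in casein control and 1.28 to 2.50 (median 1.58) in casein MR. The log2 fold changes of 0.52 ± 0.54 on elemental MR (adjusted p = 0.6) and 0.28 ± 0.52 on casein MR (adjusted p = 0.757) were within the spread. Without E_MR_3423, its highest elemental MR library, the elemental value was -0.01 (adjusted p = 0.995). The 95% intervals, -0.58 to 1.63 and -0.78 to 1.34, covered both directions.

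G0s2, the inhibitor of the triglyceride lipase Pnpla2 (ATGL), varied strongly within every group. Elemental control held 52.1 to 422 CPM (median 141), elemental MR 45.3 to 186 (median 146), casein control 69.4 to 235 (median 112) and casein MR 35.0 to 224 (median 54.8). The casein MR libraries other than C_MR_3419, at 224 CPM, lay at or below 81.0. The log2 fold changes were -0.60 ± 0.48 on elemental MR (adjusted p = 0.476) and -0.67 ± 0.49 on casein MR (adjusted p = 0.363). Leaving out C_MR_3419 brought the casein value to -1.29 (adjusted p = 0.0449). Pnpla2 itself, named here after its values were seen, rose on casein MR by 0.51 ± 0.11 (adjusted p = 0.00132) and was called on elemental MR at 0.40 ± 0.11 (adjusted p = 0.0175). The elemental call was lost without E_MR_3423 (0.35, adjusted p = 0.0516) or without E_C_3427 (0.34, adjusted p = 0.053).

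**Figure D3:**
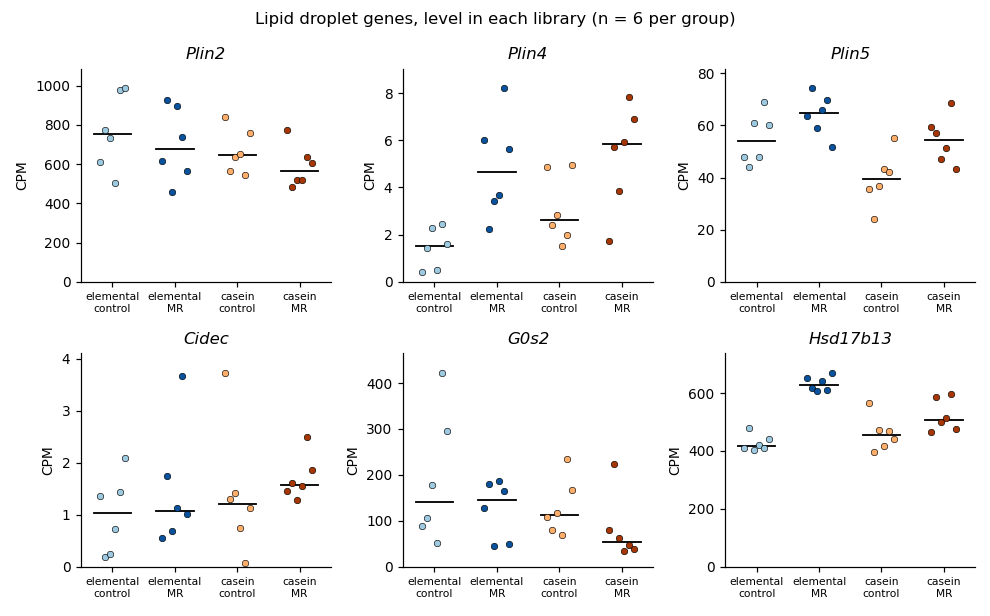
Level in CPM (vertical axes, linear and from 0) of the droplet protein genes in each of the 24 libraries, by diet group, with the group median as a bar. The Hsd17b13 libraries on elemental MR, 608 to 670 CPM, lie above all others, and the G0s2 and Cidec groups spread widely and overlap.

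On the control diets the protein source left the 10 genes without a call. With edgeR 0 of 10 were called in either direction, against 0.0298% of all genes higher and 0.0744% lower. At an unadjusted p under 0.05, 1 was higher on casein (Plin4, 1.11 ± 0.42) and 2 were lower (Plin5, -0.47 ± 0.14, and Vldlr, -0.71 ± 0.21). The DESeq2 Wald test called 1 lower, Vldlr, and limma-voom 0. The control groups overlapped for all 10 genes, and over all genes they did not overlap for 0.327% higher and 0.327% lower.

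Between the MR diets 2 of 10 genes were called higher on casein, Lpl and Vldlr, and 1 lower, Hsd17b13, against 2.72% and 3.78% of all genes. Groups that did not overlap were found for Cd36, Lpl and Vldlr (higher) and Hsd17b13 (lower), where 1.58% and 2.66% of all genes did so. For MR against its control, the groups lay apart for 3 genes on elemental MR (Hsd17b13, Cd36 and Vldlr, all higher), against 3.24% of genes higher and 3.59% lower. On casein MR they lay apart for 3 genes (Cd36, Lpl and Vldlr, all higher), against 4.82% and 6.18%. The comparisons of MR diets share libraries with the comparisons of MR and control, so their values are not independent.

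CPM of different genes depends on transcript length, and the following are mean CPM per kilobase of a gene's exons in the reference annotation. That exon length was 10478 bases for Lpl and 10068 for Vldlr, and at most 5777 (Plin4) for the others. The length of the transcripts present in these libraries was not measured. Where they are shorter than the annotated exons, the value is too low, so the order of the genes is only a rough guide. Plin2, G0s2 and Hsd17b13 were highest in elemental control, at 218, 218 and 198, followed at a distance by Plin5 at 26.4 and Angptl4 at 22.2. Cd36 was at 6.16, Lpl at 3.86, Cidec at 0.542, Vldlr at 0.273 and Plin4 at 0.250. In casein MR, Hsd17b13 stood at 242, Plin2 at 168, G0s2 at 93.3, Cd36 at 37.1, Plin5 at 26.1, Angptl4 at 22.9, Lpl at 15.4 and Vldlr at 2.46. On this scale Cd36 moved from below Plin5 and Angptl4 in elemental control to above both in casein MR. Vldlr remained far below the droplet coats Plin2 and Hsd17b13 in every group.

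The genes differed in how far libraries of one group scattered. The biological coefficient of variation, the scatter between libraries beyond counting error, was 0.618 for Cidec, 0.563 for G0s2 and 0.445 for Plin4, with 99.2%, 98.9% and 96.8% of all genes tested lower. It was 0.326 for Cd36, 0.247 for Lpl, 0.223 for Angptl4 and 0.206 for Plin2. Plin5 at 0.174, Vldlr at 0.169 and Hsd17b13 at 0.102 scattered least, around a median of 0.139 over all genes. Hsd17b13 was the steadiest of the 10, and its standard error on elemental MR was 0.08 where that of G0s2 was 0.48. Library C_C_3407 was the highest casein control library for Plin2 (839 CPM), Cidec (3.73), Hsd17b13 (567) and Cd36 (72.9), and the lowest for Angptl4 (47.5). E_MR_3423 was the highest elemental MR library for Plin4, Cidec, Cd36 and Lpl, and the lowest for Angptl4 (62.9).

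**Figure D4:**
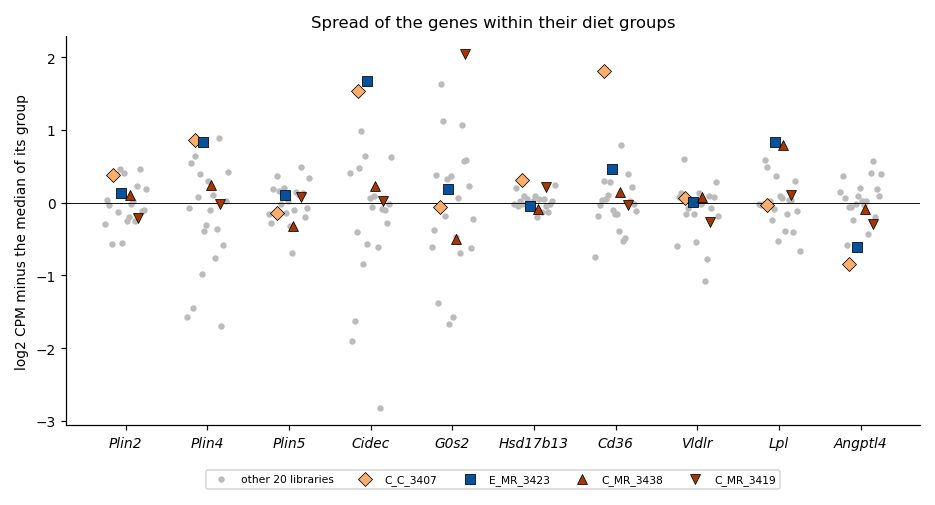
Log2 CPM of each gene minus the median of its diet group (vertical axis) in the 24 libraries, with 4 libraries named in the text marked. Cidec, G0s2 and Plin4 spread most and Hsd17b13 least, and C_C_3407 (diamond) stands high for Cd36 and Cidec and low for Angptl4.

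Other genes of the droplet were called in both directions. Of 24 tested, 3 were higher and 2 lower on elemental MR (median log2 fold change -0.04), against 6.78% and 6.64% of all genes. On casein MR 4 were higher and 5 lower (median -0.01), against 10.6% and 12.7% of all genes. Cideb, the CIDE protein of hepatocytes, which loads lipid into lipoproteins, fell on both diets, with log2 fold changes of -0.23 ± 0.06 (adjusted p = 0.00777) and -0.56 ± 0.06 (adjusted p = 3.02e-08). Its fall was larger on casein (-0.33 ± 0.08, adjusted p = 0.022), a call that was lost without C_C_3437 (-0.30, adjusted p = 0.0504). Dgat2, which makes triglyceride, fell on elemental MR (-0.31 ± 0.07, adjusted p = 0.003) and on casein MR (-0.61 ± 0.07, adjusted p = 2.20e-07). The 3 higher on elemental MR were Cidea, Fitm2 and Pnpla2, and without E_MR_3423 all 3 calls were lost.

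Other genes of lipid uptake fell more often than they rose, unlike Cd36, Vldlr and Lpl. Of 29 tested, 0 were higher and 7 lower on elemental MR (median -0.11), against 6.78% and 6.64% of all genes. For casein MR 2 were higher and 14 lower (median -0.26), against 10.6% and 12.7% of all genes. On elemental MR 2 were higher at an unadjusted p under 0.05 with edgeR, and the DESeq2 Wald test and limma-voom each called 1. Apoc3, an apolipoprotein that inhibits Lpl, fell on both diets, with log2 fold changes of -0.51 ± 0.08 on elemental MR (adjusted p = 1.11e-04) and -1.14 ± 0.08 on casein MR (adjusted p = 9.02e-11), and the effects differed by -0.63 ± 0.12 (adjusted p = 0.00256). Slc27a1, a fatty acid transporter typical of muscle and fat, rose on casein MR by 2.12 ± 0.32 (adjusted p = 1.29e-05), and by 2.08 without C_MR_3438 (adjusted p = 4.30e-05). Its level was low, at 0.53 to 1.62 CPM in casein control and 2.52 to 7.08 in casein MR. Acsl5, which activates fatty acids, fell on elemental MR (-0.56 ± 0.08, adjusted p = 2.11e-05) and on casein MR (-0.29 ± 0.08, adjusted p = 0.00753).

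The regulators of these genes include the PPAR receptors, which sense fatty acids, Pparg being the fat-cell form and Ppara the main form in hepatocytes. Pparg ran from 4.01 to 13.6 CPM (median 7.16) in elemental control, 7.33 to 20.8 (median 12.7) in elemental MR, 2.91 to 13.1 (median 8.73) in casein control and 11.5 to 23.5 (median 17.3) in casein MR. It rose on casein MR by 0.99 ± 0.29 (adjusted p = 0.0123), and the elemental value was 0.79 ± 0.29 (adjusted p = 0.0755). The elemental value passed without E_C_3428 (1.03, adjusted p = 0.0192), without E_MR_3420 (0.91, adjusted p = 0.039) and without C_C_3413 (0.79, adjusted p = 0.0455). The difference between these was 0.20 ± 0.41 (adjusted p = 0.909). Ppara fell on casein MR (-0.59 ± 0.16, adjusted p = 0.00762) and stood at -0.39 ± 0.16 on elemental MR (adjusted p = 0.117). Between the control diets and between the MR diets neither was called, with values of 0.18 and 0.38 for Pparg (adjusted p = 0.869 and 0.508) and 0.07 and -0.14 for Ppara (adjusted p = 0.914 and 0.714). Of the 19 regulators tested, 1 was higher and 2 lower on elemental MR, against 6.78% and 6.64% of all genes. For casein MR 1 was higher and 7 lower, against 10.6% and 12.7% of all genes. Srebf1, which drives fatty acid synthesis, fell on elemental MR (-0.80 ± 0.17, adjusted p = 0.00148) and on casein MR (-0.77 ± 0.17, adjusted p = 9.58e-04), and so did Cebpa, a hepatocyte and fat-cell factor (-0.27 ± 0.07, adjusted p = 0.01, and -0.47 ± 0.07, adjusted p = 9.84e-06). Epas1, a hypoxia factor, fell on casein MR (-0.37 ± 0.08, adjusted p = 6.95e-04).

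PPARalpha targets outside the 10 genes rose widely on casein MR, with 21 of 25 higher and 0 lower (median 0.997). For elemental MR 10 were higher and 1 lower (median 0.30). The shares of all genes were 10.6% higher and 12.7% lower on casein MR, and 6.78% and 6.64% on elemental MR. With DESeq2 and limma-voom the count of these targets lower on casein MR was also 0, as it was at an unadjusted p under 0.05. For the difference, casein minus elemental, the interaction test called 16 of 25 higher and 0 lower, against 0.781% and 1.56% of all genes. The count lower was also 0 at an unadjusted p under 0.05 and with DESeq2 and limma-voom. Cyp4a31, a fatty acid hydroxylase, rose by 1.76 ± 0.27 and 4.10 ± 0.30 (adjusted p = 6.38e-05 and 8.38e-11), and Acot2, a mitochondrial thioesterase, by 1.29 ± 0.19 and 2.97 ± 0.20 (adjusted p = 3.75e-05 and 2.31e-11). Ucp2, a mitochondrial carrier, and Mogat1, which makes diacylglycerol, were higher on casein MR than on elemental MR, by 1.47 ± 0.15 (adjusted p = 3.11e-07) and 3.37 ± 0.41 (adjusted p = 3.18e-06). The level of Mogat1 was low, at 0.30 to 0.73 CPM in elemental MR and 1.94 to 8.18 in casein MR.

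**Figure D5:**
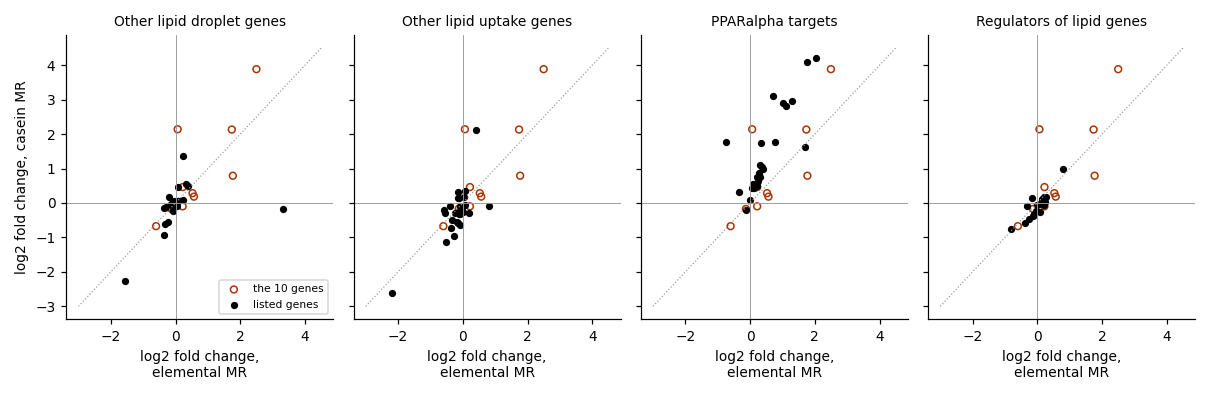
Log2 fold change on elemental MR (horizontal axis) against casein MR (vertical axis) for listed genes (black) and the 10 genes (open circles), 1 panel per list, with the line of equal effects dotted. PPARalpha targets lie mostly above the line, with a median of 0.30 on elemental MR and 0.997 on casein MR, while the medians of the other lists lie between -0.26 and 0.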

How the data were processed

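RNA was sequenced from 24 liver samples, and the deposited raw table holds whole-number read counts per gene and library for 15161 genes. The deposited normalized table holds a signal, checked to equal those counts divided by 1 size factor per library (0.745 to 1.32), and only the raw counts entered the tests. The sources used here do not name an aligner, counting tool, strand or genome build. No library was a copy of another (0 identical among 60 within-group pairs), and 0 per-sample columns were left unused.

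Tests were run with edgeR 4.0.16 in R 4.3.3. After filterByExpr, 13441 genes with 99.9% of the reads received TMM scaling, and a single quasi-likelihood model with 4 group means was fitted to all 24 libraries. Standard errors and 95% intervals follow from each fold change and its F value. The 5 comparisons were MR against control on each protein source, the difference of these effects, and casein against elemental on the control and MR diets. The members and lists were chosen with earlier results of these data known. Named were all 10 genes, Pparg and Ppara in every comparison, and for each list and comparison the 2 called genes with the smallest p. A gene this rule picked is not reported here. Alternatives were scaling by upper quartile or by DESeq2 size factors, no filter on low counts, a filter asking 1 CPM throughout a group, DESeq2 1.42.0 (Wald test), limma-voom (3.58.1, quality weights), a surrogate variable from sva 3.50.0, the compared groups alone, and each library left out. A fit without both E_MR_3423 and C_MR_3438 was chosen after seeing the data. On simulated counts, 85.1% of genes changed 2-fold were called for elemental MR (13293 genes) and 65.7% for the difference (13271 genes). For genes changed 1.5-fold the shares were 68.7% and 38.8%. The simulations gave 177 and 136 calls in total, against 1803 and 315 in the data, so these shares are only a rough guide. The changed genes were drawn from all genes above 1 CPM. Their shares therefore do not describe genes that scatter widely, such as Cidec, G0s2 and Plin4. Promoter sequences came from RefSeq (GRCm38.p6), and protein sequences were not used here. All 24 samples entered the main tests.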

Additional observations from a re-analysis of the deposited data

Results flagged for a closer look

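Among 40 groups of 6 libraries (10 genes in 4 diets), 3 held a library far from the other 5. Chance gives about 1 in 20 such groups if values are normally distributed and groups independent. The rule was applied to CPM, and the groups reuse the same libraries, so that share is only a rough guide. In casein control, C_C_3407 held Cidec at 3.73 CPM and Cd36 at 72.9 CPM. In casein MR, C_MR_3419 held G0s2 at 224 CPM.

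The MR effect differed between the elemental and casein diets for Lpl, with a log2 difference of 2.08 ± 0.29 (adjusted p = 1.51e-04, edgeR). For Vldlr the log2 difference was 1.39 ± 0.26 (adjusted p = 0.00238). Only casein MR was labelled oxidized, so protein source and oxidation cannot be told apart in these differences. All 6 casein MR libraries lay above all other libraries for both genes.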

How the results depend on the processing

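No paired analysis was possible because the libraries carry their own numbers and none is shared between groups. For log2 fold changes of single genes, 757 values under other settings and 2059 with 1 library left out kept direction and side of the threshold. Of the rest, 6 and 29 turned sign, 9 and 17 passed the threshold and 2 and 7 lost it. The 4 members called higher on elemental MR stayed 4 in number when any library was left out, and on casein MR the number was 3 to 6. For the difference, 1 member (Hsd17b13) was called lower under the DESeq2 Wald test and limma-voom, and 0 to 1 with a library left out. On the control diets 90 genes were called under the DESeq2 Wald test with 1 member lower (Vldlr), 3 under limma-voom and 7 with the compared groups alone, against 14, and 5 to 33 with a library left out (33 without C_C_3407). On casein MR 0 to 1 members were called lower (G0s2 without C_MR_3419). Between the MR diets the 1 member lower (Hsd17b13) became 0 with 1 surrogate variable (-0.23, adjusted p = 0.0905) or without both E_MR_3423 and C_MR_3438 (-0.26, adjusted p = 0.0788), and was 0 to 1 with a library left out. Signs that turned all belonged to values not called. Without both libraries, Cidec and Lpl on elemental MR were -0.0076 and -0.13, and the difference was 0.27 for Cidec and 0.17 for G0s2. The difference for Cidec was 0.19 under limma-voom, and for G0s2 0.080 with 1 surrogate variable. With a library left out, elemental MR gave -0.0068 to 0.89 for Cidec and -0.13 to 0.17 for Lpl, and casein MR -0.21 to 0.052 for Angptl4. The difference ran from -0.14 to 0.051 for Plin2, -0.59 to 0.37 for Cidec, -0.69 to 0.19 for G0s2 and -0.043 to 0.37 for Pparg. Between controls Cd36 ran from -0.024 to 0.60, Cidec from -0.15 to 0.81 and Ppara from -0.038 to 0.19, and between MR diets Plin4 from -0.016 to 0.35. The causes were not tested. Low counts limit Cidec and Plin4, with 1 to 71 and 7 to 166 reads per library.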

Other observations

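Some patterns were chosen after their values were seen. In E_MR_3424 Adipoq stood at 1.2 CPM, Plin1 at 1.98 and Cidea at 3.36, with summed adipocyte markers of 47.3 CPM, while its Plin4 was 5.64 CPM and its Cidec 1.02. In C_C_3407 Mogat1 was at 3.48 CPM and Ppara at 169, the highest casein control values of both. Its Cidea, at 1.62 CPM, and Cfd, at 6.90, were also the highest of casein control. Adipoq was at 0.187 CPM there and at 2.35 in C_C_3413. Fabp5, a fatty acid carrier of fat cells and macrophages, fell on elemental MR (log2 fold change -2.20 ± 0.51, adjusted p = 0.00381, edgeR) and on casein MR (-2.63 ± 0.49, adjusted p = 1.77e-04). The elemental call was lost under limma-voom (-1.96, adjusted p = 0.0689). Pnpla3, a droplet lipase relative, fell on casein MR (-2.28 ± 0.56, adjusted p = 0.00339) and stood at -1.58 ± 0.61 on elemental MR (adjusted p = 0.093). The casein call of Pnpla3 was lost under limma-voom (-1.43, adjusted p = 0.136).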
